A study of Mus musculus with 6 samples.

Results

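The 48 genes described here act in DNA damage signalling and repair. They were chosen by name, as the rows of the expression table whose symbol is on a list of 48 members, out of 15803 genes in all, and every one of them was found. The samples are growth plate cartilage of mouse embryos at embryonic day 18.5 (E18.5). The study asks which transcripts depend on the RNA-binding protein Hnrnpk in chondrocytes. The 3 libraries labelled CKO stand for embryos of the genotype Col2a1-Cre;Hnrnpk fl/fl. Their Cre recombinase, driven by the Col2a1 promoter, removes loxP-flanked exons of Hnrnpk in the chondrocyte lineage. The 3 libraries labelled WT stand for Hnrnpk fl/fl embryos, which carry the floxed alleles without Cre, and the samples of both groups are labelled as growth plate chondrocytes. Whether other cells of the tissue kept the gene was not analysed here. The labels do not say whether the 3 libraries of a group came from separate animals, so p-values measure only the spread between these libraries.

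Cells answer DNA damage in layers. Sensor kinases such as Atm and Atr are activated at breaks or stalled replication forks and signal to checkpoint kinases and to p53, and separate enzyme systems then mend bases, single strands or both strands of the helix. Homologous recombination works mainly in cells that have copied their DNA, whereas excision repair and end joining also serve cells that have left the cell cycle, as growth plate chondrocytes do when they turn hypertrophic.

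The unit of the table is CPM, the reads of a gene for every 1000000 reads of its library. Whole reads could be recovered from it, and they summed to 1379674, 1332542 and 1183743 for WT 1, 2 and 3 and to 1454094, 1385468 and 1153871 for CKO 1, 2 and 3. Where 3 values are given for a group, they follow this order. The 48 genes together held 4122 reads (0.106% of all reads) in WT and 4456 reads (0.112%) in CKO. The median member had a mean of 10 reads per library, against 8.83 for all genes. In 5 members (Atr, Brca2, Palb2, Ercc2 and Xpa) every library had 3 reads or fewer, here taken as the floor of detection, and no fold change is named for them. The 3 of them that were tested (Atr, Brca2 and Ercc2) do count in the medians and in the figure of 4 lists. The test took genes averaging 1 CPM or more across all 6 libraries, which were 46 of the members and not Palb2 and Xpa.

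Hnrnpk itself (ENSMUSG00000021546) had 842, 955 and 944 CPM in the WT libraries and 759, 949.9 and 779.98 CPM in the CKO libraries. The groups overlapped, with CKO 2 inside the range of WT, and the log2 fold change was -0.14 (SE 0.15, limma's adjusted p = 0.622). Reads on the floxed exons alone were not analysed here, and annotated near-identical copies (Gm4130, Gm6350 and Gm7964) could share reads with the gene. Its level alone therefore does not check the genotype labels.

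The tissue label was checked against marker genes. The 14 chondrocyte markers, led by Cnmd, were abundant everywhere, with a summed level of 28921, 29994 and 37588 CPM in the WT libraries and 7116, 7982 and 7045 CPM in the CKO libraries. Of these, 12 fell in CKO past limma's adjusted threshold (10 without CKO 1 to 13 without CKO 2). The 6 hypertrophic chondrocyte markers, led by Spp1, summed to 1466, 1478 and 4591 CPM in the WT libraries and 14042, 12392 and 15208 CPM in the CKO libraries. Spp1 rose, and without CKO 2 so did Ibsp and Mmp13 (3 of 5 tested).

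Markers of other cells also differed between the groups. Of 13 epithelial markers, 11 were in the table and 7 were tested, of which 4 rose (Perp, Slurp1, Klk10 and Sbsn). Their sum, led by Klk10, was 88.4, 81.05 and 73.5 CPM in the WT libraries and 545, 1092 and 542 CPM in the CKO libraries, highest in CKO 2. Krt5 and Krt14 were not analysed here, and Krtdap and Epcam had no read in WT and 1 and 7 reads in CKO. Of 12 macrophage and osteoclast markers, led by Lyz2, Cd68 rose, joined by Acp5 and Lyz2 without WT 3, and the sum was 155, 159.8 and 395 CPM in the WT libraries and 299.8, 302 and 315 CPM in the CKO libraries. Of 10 fibroblast and tendon markers, led by Col3a1, Dcn and Col1a2 fell (Dcn alone without CKO 3 or without WT 2, and Col3a1 besides both without CKO 2), and the sum was 4044, 4729 and 6661 CPM in the WT libraries and 3181, 1748 and 3152 CPM in the CKO libraries.

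Of osteoblast, muscle, erythroid and endothelial markers, limma called 0 past its adjusted threshold. At an unadjusted p under 0.05 there were 2 higher and 1 lower osteoblast markers and 1 higher muscle marker, and 0 among erythroid and endothelial markers. edgeR, which tested 3, 6, 0 and 1 genes of these lists, and DESeq2, with an adjusted p for 4, 5, 1 and 1, called 0. Without CKO 2 limma called 3 osteoblast markers higher, Ibsp among them, and without WT 3 it called 1 muscle marker. Osteoblast markers, led by Ibsp, summed to 461, 521 and 694 CPM in the WT libraries and 1276, 367 and 1372 CPM in the CKO libraries, and muscle markers, led by Myog, to 97.8, 63.8 and 275 CPM in the WT libraries and 140.3, 287 and 133 CPM in the CKO libraries. Erythroid markers, led by Hba-a2, summed to 0.725, 5.25 and 0.845 CPM in the WT libraries and 2.06, 28.9 and 6.07 CPM in the CKO libraries, with their highest value in CKO 2. Endothelial markers, led by Egfl7, summed to 7.25, 16.5 and 13.5 CPM in the WT libraries and 8.94, 12.99 and 14.7 CPM in the CKO libraries. In bulk tissue, fewer cells of a type and less RNA per cell cannot be told apart, and the part of cell makeup in the results on repair genes was not tested.

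The libraries CKO 2 and WT 3 stood apart. CKO 2's mean correlation with the other libraries of its group, across genes, was 0.908, against 0.9435 for CKO 1 and 0.944 for CKO 3 (genes are not independent replicates). For WT 3 it was 0.936, against 0.955 for WT 1 and 0.957 for WT 2, and WT 3 and CKO 2 had the lowest mean correlations with the other group (0.877 and 0.879). A list of 38 genes of DNA replication and proliferation, led by Rrm2, had a summed level of 1411, 1472 and 1372 CPM in the WT libraries and 1493, 2958 and 1534 CPM in the CKO libraries, so that CKO 2 lay far above the other 5 libraries. Calls of members that change without either library are therefore given with and without it.

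Most repair genes showed no difference that this depth could detect, and a pair of them rose. Polk, a translesion DNA polymerase, and Apex1, the main endonuclease for abasic sites, were higher in CKO past limma's adjusted threshold of 0.05. They are 2 of 46 members tested (4.35%), where 3.18% of all 12155 genes tested were called higher. Limma called 0 members lower, where 2.60% of all genes were. At an unadjusted p under 0.05, 5 members were higher (10.9%, beside 11.2% of all genes) and 3 lower (6.52%, beside 10.1% of all genes). The median log2 fold change of the members was -0.04, beside 0.01 for all genes tested, with 21 members above 0 and 25 below. The members' counts thus lay near the background of all genes.

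A log2 fold change above 1 with an unadjusted p under 0.05 was met by 1 member, Polk, where 5.30% of all genes met it. The same criterion below -1 was met by 1 member, Ung, where 5.10% did. Without CKO 3 Polk alone was left, without CKO 2 Atm and Xrcc4 were added, and without WT 2 Rad54l, Xrcc4 and Ercc3 were, for totals of 1, 4 and 5. Without WT 3 Ung no longer met it, whereas Atm and Xrcc4 did, for a total of 3. The share of all genes meeting it was counted only with no library left out, so these totals have no background beside them. All CKO values lay above all WT values in 9 members (19.6%), beside 14.5% of all genes, and below them in 5 (10.9%), beside 13.2%. The 48 genes summed to 947, 1055 and 1191 CPM in the WT libraries and 1091, 1093 and 1174 CPM in the CKO libraries. Each CKO sum lay inside the WT range, but Ddb1 alone held 32.8% of the reads on these genes.

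**Figure D1:**
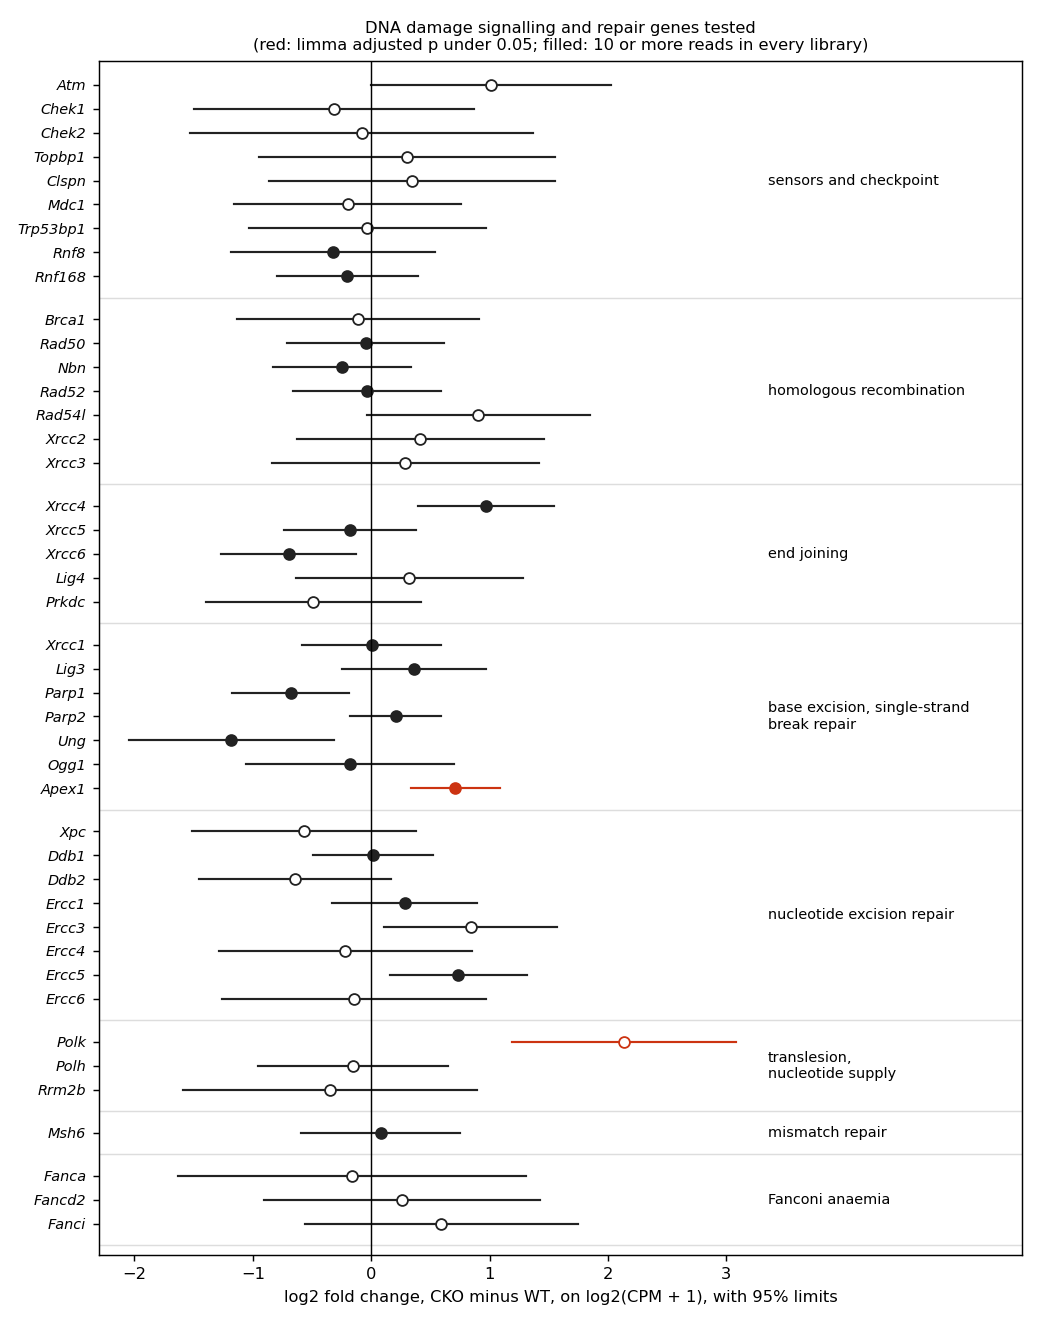
Log2 fold change (CKO minus WT, on log2(CPM + 1)) with 95% limits for the 43 members tested that had over 3 reads in at least 1 library, ordered by role. Red marks limma's adjusted p under 0.05 (Apex1 and Polk), filled circles mark 10 or more reads in every library, and the limits of most other members span 0.

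The calls changed when single libraries were left out, which also lowers the power of the test. Without CKO 2, limma called 3 members higher (Xrcc4 besides Apex1 and Polk) and 3 lower (Xrcc6, Parp1 and Ung), and the calls among all genes went from 703 to 1298. Without CKO 1, CKO 3, WT 1 or WT 2 in turn it called 0 members in either direction, and 258, 231, 218 and 212 of all genes. On the recovered reads, edgeR's quasi-likelihood test called Apex1 and Polk higher among 24 members it tested, and DESeq2 called Polk among 27 to which it gave an adjusted p. Both called 0 members lower. Among all genes edgeR called 374 higher and 363 lower of 7704 tested. DESeq2 called 344 higher and 305 lower of 8440 with an adjusted p. With the test limited to genes of 5 CPM or more, Xrcc4 was called as well. The sign of the members' median also changed, to 0.06 without CKO 1, 0.09 without CKO 3 and 0.07 without WT 2, and the median was -0.20 without WT 3.

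The 10 sensors and checkpoint genes were measured with few reads, and limma called 0 of them past its adjusted threshold or at an unadjusted p under 0.05. edgeR, which tested 3 of them, and DESeq2, which gave an adjusted p for 5, also called 0. Atm, the kinase activated by double-strand breaks, had 2.17, 1.501 and 3.38 CPM in the WT libraries and 8.94, 3.61 and 5.20 CPM in the CKO libraries. All CKO values were the higher ones, with CKO 2 close to WT 3. The reads over a whole group were 9 in WT and 24 in CKO, a ratio of 2.60 (95% exact interval 1.17 to 6.36, counting error only), and the log2 fold change was 1.01 (SE 0.46, limma's adjusted p = 0.235). Atr, the kinase of stalled forks, had 3, 3 and 2 reads in the WT libraries and 1, 2 and 0 reads in the CKO libraries, at the floor throughout, with as many in CKO 2 as in WT 3.

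Rnf8, a ubiquitin ligase that marks chromatin at breaks, held the most reads of these genes. It had 29.7, 29.3 and 11.8 CPM in the WT libraries and 25.4, 13.7 and 14.7 CPM in the CKO libraries. High and low libraries occurred in both groups (log2 fold change -0.32, SE 0.39, limma's adjusted p = 0.687), and with single libraries left out it ran from -0.74 without WT 3 to -0.11 without WT 1. The overlapping gene model Gm28043 on its strand could share reads. Rnf168, the ligase that extends the mark of Rnf8, the scaffold proteins Mdc1 and Trp53bp1, the fork protein Topbp1 and the checkpoint kinase Chek2 had log2 fold changes between -0.20 and 0.30, all with overlap, and Chek2 had at most 6 reads in a library. The kinase gene Chek1 and Clspn, whose product helps to activate Chek1 at forks, had their highest value in CKO 2. Chek1 had 16, 6 and 8 reads in the WT libraries and 4, 18 and 5 reads in the CKO libraries, and Clspn had 5, 9 and 10 reads in the WT libraries and 5, 26 and 8 reads in the CKO libraries.

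In homologous recombination, 8 of 9 genes were tested, and again 0 passed limma's adjusted threshold or an unadjusted p of 0.05. edgeR called 0 of the 3 it tested and DESeq2 0 of the 3 to which it gave an adjusted p. Nbn, a subunit of the complex that holds and trims broken ends, held the most reads, with 23.9, 22.5 and 21.96 CPM in the WT libraries and 16.5, 25.3 and 16.5 CPM in the CKO libraries. CKO 2 was the highest library and the other CKO libraries were the lowest (log2 fold change -0.25, 95% limits -0.83 to 0.34, with -0.44 without CKO 2, -0.15 without CKO 1 and -0.15 without CKO 3). Rad54l, a motor protein that moves along DNA, had 2.90, 4.50 and 1.69 CPM in the WT libraries and 4.81, 7.22 and 6.93 CPM in the CKO libraries. The CKO libraries were all higher, on 12 reads in WT against 25 in CKO, and the log2 fold change was 0.91 (SE 0.42, limma's adjusted p = 0.252). Lrrc41, which overlaps exons of Rad54l on the opposite strand, had at least 86 reads in every library.

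The other members of this group were lower in reads or without difference. Rad50, the partner of Nbn, had a log2 fold change of -0.05 (95% limits -0.71 to 0.62) and Rad52, which anneals single strands, of -0.03 (95% limits -0.66 to 0.59). Brca1, Brca2 and Palb2, tumour suppressors of this pathway, had at most 9, 3 and 2 reads in any library, and Xrcc2 and Xrcc3, which act beside them, at most 4 and 4. Differences in these 5 genes, large ones included, could be missed at this depth. The 95% limits were -1.14 to 0.91 for Brca1, -0.63 to 1.46 for Xrcc2 and -0.84 to 1.41 for Xrcc3.

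In end joining, members pointed in opposite directions, and 0 of 5 passed limma's adjusted threshold (at an unadjusted p under 0.05, 1 higher and 1 lower), and 0 passed in edgeR (4 tested) or DESeq2 (4 with an adjusted p). Xrcc4, the partner of DNA ligase IV in sealing ends, had 13.05, 19.5 and 18.6 CPM in the WT libraries and 34.4, 28.9 and 38.999 CPM in the CKO libraries. Every CKO library lay well above the highest WT library. The log2 fold change of 0.97 (SE 0.26) just missed the threshold (limma's adjusted p = 0.0551, with 0.0282 without CKO 2 and up to 0.205 without CKO 3). Tmem167 overlaps its exons on the opposite strand and was far more abundant, at a mean of 608 CPM in WT and 600.4 CPM in CKO.

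Xrcc6, a subunit of the Ku heterodimer that binds broken ends, had 63.1, 47.3 and 48.2 CPM in the WT libraries and 22.7, 41.1 and 34.7 CPM in the CKO libraries. The CKO libraries were lower without overlap, CKO 2 coming nearest to WT. Its log2 fold change was -0.70 (SE 0.26, limma's adjusted p = 0.151) and -0.88 without CKO 2 (adjusted p = 0.0456, and up to 0.404 without CKO 1, where the fold change was -0.46). Desi1 overlaps its exons on the opposite strand, with 71, 46 and 55 reads in the WT libraries and 24, 60 and 28 reads in the CKO libraries, and like Xrcc6 was lowest in CKO 1. The other Ku subunit, Xrcc5, had a log2 fold change of -0.18 (95% limits -0.73 to 0.38), and Lig4, the ligase itself, of 0.32 (95% limits -0.64 to 1.28). Prkdc, the kinase that Ku recruits, had 4, 5 and 5 reads in the WT libraries and 3, 3 and 3 reads in the CKO libraries, lower without overlap by as little as 1 read (limma's adjusted p = 0.536).

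Base excision and single-strand break repair held the better measured of the called genes. Apex1 (ENSMUSG00000035960, GRCm38 chromosome 14, 50924968 to 50927139, plus strand, protein coding) had 82.6, 81.05 and 92.9 CPM in the WT libraries and 127, 157 and 139.5 CPM in the CKO libraries. The WT libraries were close together, and all CKO libraries lay above them. The mean rose from 85.5 ± 6.45 CPM (SD, n = 3) to 141 ± 15.1 CPM (SD, n = 3), a log2 fold change of 0.71 (SE 0.17, limma's adjusted p = 0.0372). In reads, 332 against 562, the ratio was 1.65 (95% exact interval 1.44 to 1.90, counting error only). Leaving out single libraries kept the log2 fold change between 0.63 and 0.78, but the adjusted p was 0.0907 without CKO 1, 0.133 without CKO 3, 0.137 without WT 1 and 0.143 without WT 2. It was 0.0339 with edgeR's quasi-likelihood test, 0.0519 with DESeq2 and 0.0937 with a term for replicate number, and over all alternatives from 0.0300 to 0.143. An annotated near-identical copy, Gm7063, and Pip4p1, which overlaps its exons on the opposite strand and had at most 17 reads in a library, could share reads.

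Apex1 starts head to head with Osgep, a gene for a tRNA-modifying enzyme, and the neighbours differed in direction. Osgep, chosen after its values were seen, had 122, 96.8 and 62.5 CPM in the WT libraries and 55.7, 38.98 and 44.2 CPM in the CKO libraries. All CKO values were the lower ones, with a log2 fold change of -0.97 (SE 0.26) that missed the threshold (limma's adjusted p = 0.0569). The 55 bases between Osgep and the RefSeq start of Apex1 (50924949) are shown because the pair differed in direction (RefSeq, GRCm38.p6, chr14:50924894-50924948, plus strand, read toward Apex1). The GENCODE start given above (50924968) lies further into the gene than this RefSeq start. Capitals mark CCAAT and the E-box CACGTG. The letters run from the Osgep side to Apex1, although the label names Apex1 first.

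Apex1 to Osgep: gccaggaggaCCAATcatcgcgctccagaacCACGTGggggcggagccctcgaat

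Motifs were searched on both strands in windows from 250 bases before to 50 after each start, of which 32851 are in the reference, with 39 members among them. CACGTG occurred 3 times in the window of Apex1 and was found in 7.15% of all windows (8.09% of all genes) and in 6 of the 39 members. CCAAT occurred 2 times there and was found in 37.4% of all windows (41.1% of all genes) and in 20 of the members. GGGCGG, with 1 occurrence in Apex1, was found in 35.7% of all windows (38.2% of all genes) and in 29 of the members. The window of Apex1 held none of the other motifs searched, which were TGACGTCA (1.79% of all windows, 2.03% of all genes, 1 of the 39 members), TTTGGCGC (0.514%, 0.585%, 0), TTTCCCGC (1.07%, 1.24%, 5), CCGGAAG (8.86%, 9.93%, 9) and the p53 half-site (8.36%, 9.55%, 2). A match describes letters only, and no share was tested.

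The other members of base excision repair did not pass the threshold. Parp1, which senses single-strand breaks and builds poly(ADP-ribose), had 41.3, 42.02 and 45.6 CPM in the WT libraries and 23.4, 32.5 and 24.3 CPM in the CKO libraries. The groups were apart, with CKO 2 nearest to WT. Its log2 fold change was -0.68 (SE 0.22, limma's adjusted p = 0.107) and -0.82 without CKO 2 (adjusted p = 0.0307, and up to 0.288 without CKO 1). A near-identical copy, Gm49061, is annotated. Parp2, which shares its activity, had 67.4, 71.3 and 76.03 CPM in the WT libraries and 77.02, 81.6 and 90.1 CPM in the CKO libraries. The lowest CKO library was barely above the highest WT library (log2 fold change 0.21, 95% limits -0.18 to 0.59), and a 2-fold difference lay outside the limits.

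Ung, which removes uracil from DNA, had 26.1, 18.8 and 48.997 CPM in the WT libraries and 11.003, 18.8 and 8.67 CPM in the CKO libraries. WT 3 was by far the highest, CKO 1 and CKO 3 were the lowest, and CKO 2 was level with WT 2. The log2 fold change was -1.18 (SE 0.39, limma's adjusted p = 0.111), -1.47 without CKO 2 (adjusted p = 0.0328) and -0.81 without WT 3 (adjusted p = 0.267, and up to 0.301 without CKO 3). Lig3, the ligase of single-strand breaks, had 12.3, 14.3 and 14.4 CPM in the WT libraries and 18.6, 14.4 and 20.8 CPM in the CKO libraries. All CKO values were the higher ones, CKO 2 by less than 1 CPM (log2 fold change 0.36, limma's adjusted p = 0.496). Its scaffold Xrcc1 had a log2 fold change of 0.00 (95% limits -0.59 to 0.59), and Ogg1, the glycosylase for oxidised guanine, of -0.18 (95% limits -1.06 to 0.70).

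**Figure D2:**
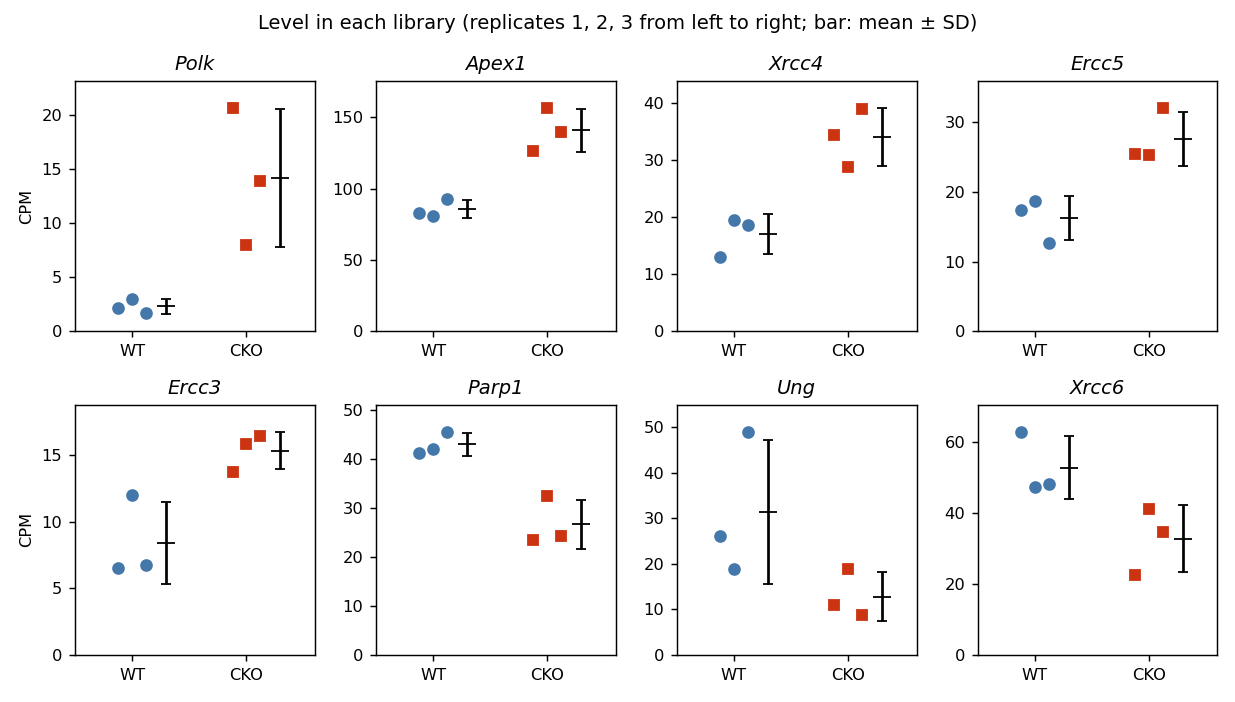
CPM of the 8 members with an unadjusted p under 0.05 in each library (WT and CKO, replicates 1 to 3), with the mean and SD of the 3 libraries of a group and an axis from 0 in each panel. Polk, Apex1, Xrcc4, Ercc5 and Ercc3 were higher and Parp1 and Xrcc6 lower in CKO without overlap, whereas Ung in CKO 2 was level with WT 2.

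Nucleotide excision repair cuts out bulky lesions such as those of ultraviolet light. Of its 10 members 9 were tested, and 0 passed limma's adjusted threshold, while 2 were higher at an unadjusted p under 0.05. In edgeR (4 tested) and DESeq2 (5 with an adjusted p) 0 passed. Ddb1, a subunit of the damage sensor that also serves many ubiquitin ligases, held 32.8% of all reads on the 48 genes. It had 279.8, 323 and 482 CPM in the WT libraries and 369, 281 and 432 CPM in the CKO libraries. The groups covered much the same range (log2 fold change 0.01, 95% limits -0.49 to 0.52, and from -0.15 without WT 1 to 0.24 without WT 3). The sensor's other subunit, Ddb2, had 7.25, 8.25 and 7.60 CPM in the WT libraries and 6.19, 4.33 and 3.47 CPM in the CKO libraries. The CKO libraries were lower without overlap, on 30 reads against 19, with a log2 fold change of -0.65 (SE 0.37, limma's adjusted p = 0.340). Acp2, which overlaps exons of Ddb2 on the opposite strand, fell (log2 fold change -0.87, limma's adjusted p = 0.0423).

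Ercc5, the nuclease that cuts on one side of the lesion, had 17.4, 18.8 and 12.7 CPM in the WT libraries and 25.4, 25.3 and 32.1 CPM in the CKO libraries. Ercc3, a helicase of the transcription factor TFIIH that opens the helix there, had 6.52, 12.01 and 6.76 CPM in the WT libraries and 13.8, 15.9 and 16.5 CPM in the CKO libraries. For both genes all CKO libraries were the higher ones, though WT 2 came near to them for Ercc3. The log2 fold changes were 0.74 (SE 0.26) and 0.84 (SE 0.33), with limma's adjusted p = 0.135 and 0.174. Ercc1, a subunit of the nuclease on the other side, had a log2 fold change of 0.28 (95% limits -0.33 to 0.90), and its partner Ercc4 at most 6 reads in a library. The lesion sensor Xpc had a log2 fold change of -0.57 (95% limits -1.52 to 0.38). Ercc6, which acts where transcription stalls, the TFIIH helicase Ercc2 and the scaffold Xpa had at most 5, 3 and 3 reads in a library.

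Polk gave the largest log2 fold change among the 43 members tested above the floor. The gene (ENSMUSG00000021668, GRCm38 chromosome 13, 96480690 to 96542579, minus strand, protein coding) encodes a polymerase that copies past damaged bases. It had 2.17, 3.002 and 1.69 CPM in the WT libraries and 20.6, 7.94 and 13.9 CPM in the CKO libraries. In reads these were 3, 4 and 2 against 30, 11 and 16. The WT libraries were at or near the floor, and all CKO libraries stood above them, CKO 2 the least. Polk rose by 2.13 on the log2 scale (SE 0.43, 95% limits 1.19 to 3.08, limma's adjusted p = 0.0190), and the ratio of reads was 6.18 (95% exact interval 3.04 to 14.2, counting error only). Leaving out single libraries kept the log2 fold change between 1.83 and 2.47, but the adjusted p was 0.0925 without CKO 1, 0.0835 without CKO 3, 0.0777 without WT 1 and 0.0587 without WT 2. edgeR's quasi-likelihood test gave an adjusted p = 0.0184 and DESeq2 one of 0.0156, within 0.00540 to 0.0925 over all alternatives.

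Polk also starts head to head with a neighbour, Col4a3bp, which had 1, 1 and 0 reads in the WT libraries and 1, 6 and 2 reads in the CKO libraries, too few for a comparison. The 38 bases before the start of Polk that separate the pair are shown beside those of Apex1 as the other called member (RefSeq, GRCm38.p6, chr13:96542580-96542617, minus strand, read toward Polk). They hold neither CCAAT nor CACGTG. Their letters run from the Col4a3bp side to Polk, although the label names Polk first.

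Polk to Col4a3bp: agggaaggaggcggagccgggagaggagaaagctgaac

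The reference has 2 promoter windows for Polk. In the window at this start GGGCGG occurred 1 time and none of the other motifs did. The window at the other start, which lies within the gene, held 2 matches to the p53 half-site and none of the other motifs. These were 1 on each strand at the same bases, since the motif is its own reverse complement. CACGTG is its own reverse complement too, but was counted once per site, as its odd count of 3 in Apex1 shows. Occurrences of these motifs were therefore not counted alike.

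The other translesion polymerase, Polh, had 7.97, 12.01 and 10.1 CPM in the WT libraries and 9.63, 5.77 and 12.1 CPM in the CKO libraries. The groups overlapped (log2 fold change -0.15, 95% limits -0.95 to 0.65, and from -0.36 without CKO 3 to 0.11 without CKO 2). Rrm2b, which supplies nucleotides for repair, had a log2 fold change of -0.35 (95% limits -1.59 to 0.89). The mismatch repair gene Msh6 had 21.7, 24.8 and 12.7 CPM in the WT libraries and 17.9, 19.5 and 23.4 CPM in the CKO libraries, again with overlap (log2 fold change 0.08, 95% limits -0.59 to 0.75, and from -0.20 without WT 3 to 0.26 without WT 2). Near-identical sequences annotated for Rrm2b (Gm49085 and Gm8616) and Msh6 (Gm11855) could share their reads. Of the Fanconi anaemia genes, which serve the repair of crosslinks between strands, Fanci had the most reads, with 5.07, 2.25 and 1.69 CPM in the WT libraries and 2.06, 6.50 and 6.93 CPM in the CKO libraries. WT 1 lay between the CKO values (log2 fold change 0.59, SE 0.52, limma's adjusted p = 0.563). Single libraries moved this to 1.04 without CKO 1, 0.94 without WT 1, 0.39 without CKO 2, 0.35 without CKO 3 and 0.35 without WT 3. Its partner Fancd2 and the core protein Fanca had at most 5 and 10 reads in a library, Fanca with its highest value in CKO 2.

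Compared per kilobase of exon, the members differed widely in level. The mean over the 6 libraries was 79.6 CPM per kb for Apex1, 56.4 for Ddb1, 21.3 for Parp2 and 17.7 for Ercc1. These 4 members had at least 10 CPM per kb, and 22 of the 48 were below 1 CPM per kb. The large kinases of damage signalling lay toward the lower end, with 0.400 CPM per kb for Atm, 0.224 for Prkdc and 0.0582 for Atr.

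Other members known as p53 targets in mouse or human did not share the rise of Polk. Of the 5 such members (Ddb2, Xpc, Polk, Polh and Rrm2b), Polk passed limma's adjusted threshold. The other 4 had log2 fold changes between -0.65 and -0.15. Over a whole group Ddb2, Xpc, Polh and Rrm2b held only 30, 26, 39 and 18 reads in WT and 19, 16, 36 and 11 in CKO. Whether each of the 5 members is a p53 target in mouse was not analysed here. Beside them stands a list of 24 p53 targets outside repair, which act in cell cycle arrest, apoptosis or feedback on p53, a class known to be higher in these data when the list was made. Of the 23 tested, 13 rose and limma called 0 lower (1 at an unadjusted p under 0.05, 0 by edgeR among 19 tested or DESeq2 among 21 with an adjusted p), and the median log2 fold change was 1.06. Without CKO 3, 8 were called, 9 without CKO 1, 9 without WT 1, 9 without WT 2, 11 without WT 3 and 13 without CKO 2. The difference between the lists was not tested.

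Cdkn1a, the inhibitor of cyclin-dependent kinases, held the most reads of these targets, with 475, 455 and 251 CPM in the WT libraries and 1918, 1452 and 1635 CPM in the CKO libraries. All CKO libraries were far above all WT libraries (log2 fold change 2.13, SE 0.24, limma's adjusted p = 0.00130). Mdm2, the ubiquitin ligase that removes p53, rose too (log2 fold change 1.75, SE 0.21, limma's adjusted p = 0.00196). Also called were Bax, Perp, Ccng1, Btg2, Plk2, Pmaip1, Fas, Trp53inp1, Eda2r, Gdf15 and Psrc1, of which Perp is also on the list of epithelial markers. The summed level of the 24 genes was 1619.9, 1539 and 1007 CPM in the WT libraries and 4179, 3810.3 and 3917 CPM in the CKO libraries.

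**Figure D3:**
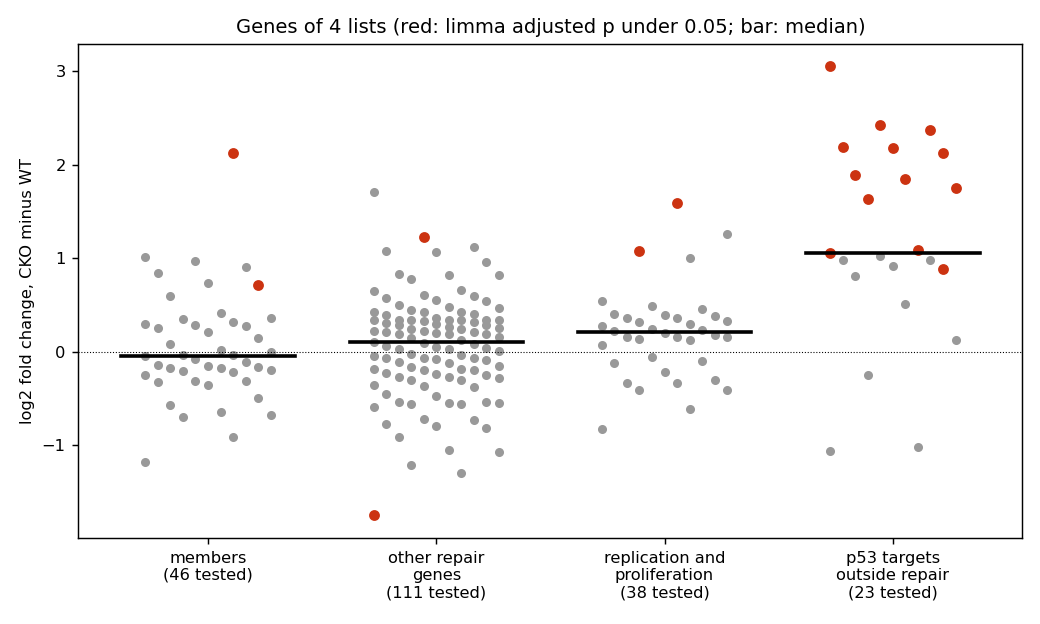
Log2 fold change (CKO minus WT, on log2(CPM + 1)) of each gene tested in 4 lists, with red points past limma's adjusted p of 0.05 and a bar at each median. The medians are -0.04 for 46 members, 0.10 for 111 other repair genes, 0.21 for 38 replication and proliferation genes and 1.06 for 23 p53 targets outside repair.

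Members tied to the cell cycle varied with CKO 2. For 13 members whose expression is known to follow the cycle (Brca1, Brca2, Chek1, Clspn, Topbp1, Rad54l, Xrcc2, Palb2, Fanca, Fancd2, Fanci, Msh6 and Ung), the summed level was 86.3, 79.5 and 99.7 CPM in the WT libraries and 57.8, 116 and 71.1 CPM in the CKO libraries. CKO 2 was the highest and CKO 1 the lowest of the 6 libraries. Among the CKO libraries CKO 2 held the highest value in 9 of the 13 (69.2%), in 11 of the 35 other members (31.4%) and in 41.1% of all genes tested. Of the 12 tested, 0 passed limma's adjusted threshold, and Ung had an unadjusted p under 0.05. edgeR tested 2 of them and DESeq2 gave an adjusted p for 4, with 0 called by either. Their median log2 fold change was 0.17 with CKO 2 and -0.18 without it, where Ung was called lower, and 0.04 without WT 1 and 0.03 without WT 3.

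The 38 replication and proliferation genes had a median of 0.21 with CKO 2 and -0.13 without it, and of 0.44 without CKO 1 and 0.32 without CKO 3. Rrm2 and Rfc3 rose in both cases, and without CKO 2 Ccna2 and Mki67 were called lower. Rrm2 alone was called without CKO 1, without CKO 3, without WT 1 or without WT 2. The 35 other members summed to 860.3, 976 and 1091 CPM in the WT libraries and 1034, 977 and 1103 CPM in the CKO libraries. Those sums overlapped, and CKO 2 did not stand apart in them. They were led by Ddb1, with 279.8, 323 and 482 CPM in the WT libraries and 369, 281 and 432 CPM in the CKO libraries. Among the CKO libraries Ddb1 was lowest in CKO 2, and sums without Ddb1 were not analysed here.

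**Figure D4:**
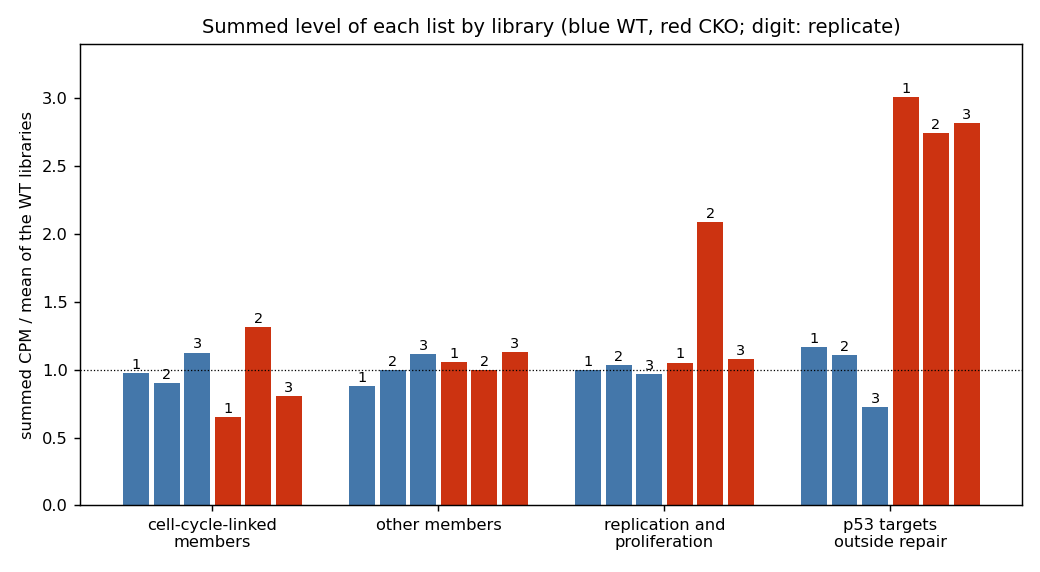
Summed CPM of each list in each library, divided by the mean of the 3 WT libraries (blue WT, red CKO, digits give the replicate). CKO 2 was at 1.31 for the cell-cycle-linked members and 2.09 for the replication and proliferation genes. The other members, led by Ddb1, stayed between 0.882 and 1.13, and the p53 targets were at 2.74 to 3.01 in CKO.

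A list of 118 other repair genes had 117 in the table (Fen1 was not analysed here) and 111 tested, of which Cul4b rose and Mbd4 fell past limma's adjusted threshold. Their median log2 fold change was 0.10 (0.04 without CKO 2 and 0.07 without WT 3). Cul4b, a scaffold of the ubiquitin ligases in which Ddb1 serves, had 9.42, 10.5 and 13.5 CPM in the WT libraries and 33.7, 20.2 and 29.5 CPM in the CKO libraries, without overlap (log2 fold change 1.23, SE 0.29, limma's adjusted p = 0.0377). Mbd4, a glycosylase for mismatched thymine and uracil, had 10, 9 and 9 reads in the WT libraries and 3, 1 and 2 reads in the CKO libraries, apart on few reads (log2 fold change -1.75, SE 0.42, limma's adjusted p = 0.0377). Neither was called without CKO 1, without CKO 3, without WT 1 or without WT 2, and Cul4b alone was without WT 3. With a term for replicate number neither was called, and with a pseudocount of 0.1 or no filter Cul4b alone was. Without CKO 2 Rad51d, Sem1 and Mgmt were also called higher, for 4 higher. edgeR called Cul4b and Rad51d higher and DESeq2 called Mgmt higher, while Mbd4 had too few reads for an adjusted p in either.

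Depth limits what can be said of members that were not called. In the 19 members with 10 or more reads in every library the median half-width of the 95% limits was 0.59 on the log2 scale, and in the other 27 tested it was 1.05. The limits lay within -1 to 1 on log2(CPM + 1) for 11 of the 19 and for 12 of all 46. On this scale changes of low genes come out too small, so a 2-fold difference in CPM is not excluded for every one of them.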

How the data were processed

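Per the labels, RNA was isolated with TRIzol and sequenced with a stranded mRNA kit; the submitters' processing notes name cutadapt 2.5, HISAT2 and featureCounts 1.6.3. Genome build and strand setting are not given in the sources used here. Expression values are CPM as the authors deposited them, and 100% of values were whole reads within 0.01 reads. Genotype was fitted to log2(CPM + 1) with limma 3.58.1 (R 4.3.3, empirical Bayes, mean-variance trend) in the 12155 genes whose mean was 1 CPM or more, with Benjamini-Hochberg adjustment over all of them. On this scale, changes of low genes come out too small. Alternatives were a pseudocount of 0.1, no filter, a filter at 5 CPM, a term for replicate number, leaving out each library, TMM-scaled CPM, and, on recovered reads, edgeR 4.0.16 (quasi-likelihood, 737 genes called with TMM and 754 with RLE factors) and DESeq2 1.42.0 (649 called). The fits were tested on simulated data with 4-fold changes. Of the changed genes tested, limma recovered 120 of 198, edgeR 115 of 138 and DESeq2 106 of 200. False calls were 8, 10 and 11. Coordinates and exon lengths are from GENCODE M21 (GRCm38), which holds 15212 of the table's 15217 Ensembl identifiers. Near-identical copies share 90% identity over 300 bp (BLAST 2.17.0). Exact intervals are Clopper-Pearson intervals. They and the floor of 3 reads cover counting error only. Of the 48 members, 16 overlap exons of a gene of the table on the opposite strand. Members and lists were chosen with earlier results of these data known. Named are members past the adjusted threshold, with an unadjusted p under 0.05, without overlap between groups or with the most reads in their role group, and genes of other lists past the adjusted threshold. All other members are given by range, limits or highest read count, and those singled out among them, the neighbours and the motifs were chosen after values were seen.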

Additional observations from a re-analysis of the deposited data

How the results depend on the processing

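Members higher past the adjusted threshold were 2, and 1 with the replicate block, 1 with DESeq2 (Polk in both) and 0 to 3 with each library left out. Members lower were 0, and 0 to 3 with each library left out. The fold and p criterion was met by 2 members, and by 1 to 5 with each library left out, where the share of all genes was not counted. The members' median log2 fold change was -0.04, and ran from -0.196 without WT 3 to 0.0905 without CKO 3. The cause of these changes was not tested. Hnrnpk ran from -0.25 to -0.08 and passed in 0 of 14 alternatives. Polk passed in 10 and Apex1 in 8 of 14 alternatives, both always higher in CKO. Replicate numbers did not pair the libraries (correlations of deviations across genes 0.0729, -0.208 and -0.155), and with the block 385 genes were called in place of 703.

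Low depth limits what can be said of many members, and so do 3 libraries per group. Scaling by TMM factors moved the median of all genes from 0.01 to -0.03. Log2 fold changes near 0 changed sign between alternatives in Ddb1, Msh6 and Polh. Protein levels, DNA damage and repair activity were not analysed here.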

Other observations

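Genes next to the members with an unadjusted p under 0.05 were read after values were seen. Snu13, a gene for a small nucleolar ribonucleoprotein 440 bases from Xrcc6 on the opposite strand, had 328, 316 and 278 CPM in the WT libraries and 428, 469.9 and 435 CPM in the CKO libraries. Its CKO values were the higher ones and those of Xrcc6 the lower ones. The log2 fold change of Snu13 (0.53) missed the threshold with limma's adjusted p = 0.0560. Alkbh2, a direct reversal enzyme for alkylated bases 2168 bases from Ung, had a log2 fold change of -0.10, and Bivm, 2974 bases from Ercc5, one of 0.27, both with overlap.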
